A study of Mus musculus with 3 samples.

Results

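B cells formed 1950 of the 11640 leukocytes counted in the sciatic nerves of NOD.AIRE GW/+ mice, and they were taken as the cells that the depositors had put in their class B, which is the whole of their cluster 1. NOD mice are an inbred strain prone to autoimmunity, and here they carried 1 GW allele of Aire, a gene that drives display of tissue antigens in the thymus. All mice were 15 weeks old, nerves were taken after perfusion of the heart, and the CD45+ fraction, that is all leukocytes, was run as 3 libraries of this 1 genotype. Libraries 1 and 2 were read from the 3′ end of the transcript and library 3 from the 5′ end. Wild-type nerve is named in the description of the study and was not analysed here, so no comparison between genotypes was made. The labels do not say whether the libraries came from separate animals. Every p-value below therefore rests on these 3 libraries only and cannot be read as spread between animals. Its estimate of spread was shared across genes, so it is not a gene's own spread between libraries either.

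B cells are the lymphocytes that make antibody. Each carries a surface immunoglobulin joined to the signalling chains Cd79a and Cd79b, and it can take up antigen through this receptor and show it to T cells on MHC class II. A naive B cell makes the IgM and IgD heavy chains, and class switching replaces them with IgG, IgA or IgE in cells that have met antigen. Naive cells circulate between blood and lymphoid follicles, whereas switched memory cells can also be found in inflamed tissue.

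The class held 1446 cells in library 1, 89 in library 2 and 415 in library 3, which was 24.0% (exact 95% binomial interval 22.9 to 25.1), 3.81% (3.07 to 4.67) and 12.7% (11.6 to 13.9) of the cells of each library. Intervals of this kind cover counting error only. B cells had a median of 2869.5 UMIs (counted molecules) in library 1, 4445 in library 2 and 4198 in library 3. No cell barcode was shared between the B cells of different libraries. The 5 defining markers of the class were Cd79a, Ms4a1, Ebf1, Pax5 and Ighd. Together they made 4552, 4270 and 5289 counts per 1000000 (CPM) of the B cells of libraries 1, 2 and 3. At least 1 such UMI was seen in 99.5%, 98.9% and 98.8% of the cells. The cells had been grouped by these same counts, so these values describe the label and do not test it. The 5 T cell markers summed to 253, 64.7 and 797 CPM in B cells, against 79.5, 10.7 and 830 CPM in the macrophages of the same libraries, a class that should lack them. The 5 macrophage markers summed to 53.0, 0 and 7.87 CPM in B cells, and the fibroblast markers Col1a1 and Dcn were at 0 in all 3 libraries. The 6 plasma cell markers summed to 504, 1054 and 679 CPM in B cells, against 124, 120.3 and 223 CPM in Cd4 cells, with Mzb1, which B cells also make, as the most abundant and the receptor gene Tnfrsf17 at 0. The endothelial marker Pecam1, an adhesion gene that leukocytes also make, had 138, 77.5 and 94.7 CPM in B cells, against 38.2, 30.4 and 28.5 CPM in the other classes.

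In the accounts that follow, levels are CPM of the summed UMIs of a class in a library, scaled by the TMM method. Fold changes compare B cells with the mean log level of the 7 other classes that had at least 20 cells in every library: cDC (conventional dendritic cells), Mac (macrophages), Treg, Cd8, Cd4, gdT/NK/NKT and Mixed. They come from edgeR's quasi-likelihood fit with the library as a block, and are given in parentheses on the log2 scale with a standard error. For the edgeR fits this error is the size of the fold change divided by the square root of its F statistic. The level quoted for the other classes is the plain mean of their CPM, which 1 high class can lift above the B cell level even where the log2 fold change is positive. Of 10895 genes tested, 37.1% were called at an adjusted p under 0.05, 20.8% higher in B cells and 16.4% lower. The cells had been grouped by these same transcripts, so the calls between classes describe the class and are no evidence that it is distinct.

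The B cell receptor complex and its signalling chain were high in the class. Cd79a, on chr7:24897497-24901858, had 2129.5, 2299 and 3052 CPM in B cells of libraries 1, 2 and 3, against a mean of 15.6, 0.510 and 5.97 CPM in the other classes (8.71 ± 0.29). No other class averaged more than 9.66 CPM of it. Ms4a1, which encodes CD20, had 854, 589 and 754 CPM in B cells and 4.98, 0.219 and 2.07 CPM in the other classes (8.82 ± 0.22). Of the 17 genes listed for the receptor and its signalling, 16 were called higher in B cells and none lower, with a median log2 fold change of 5.62, where the median over all genes tested was 0.03. The Src-family kinase gene Blk (6.38 ± 0.29), the adaptor Blnk (6.01 ± 0.27), the kinases Syk (4.58 ± 0.21), Btk (5.62 ± 0.26) and Lyn (3.59 ± 0.18) and the scaffold Bank1 (7.78 ± 0.22) were among the 16. Blk was also high in the Mixed class, at 141 CPM on average. The gene not called was Vav1, a guanine nucleotide exchange factor used by lymphocytes in general, at 58.6, 50.9 and 99.4 CPM in B cells.

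**Figure D1:**
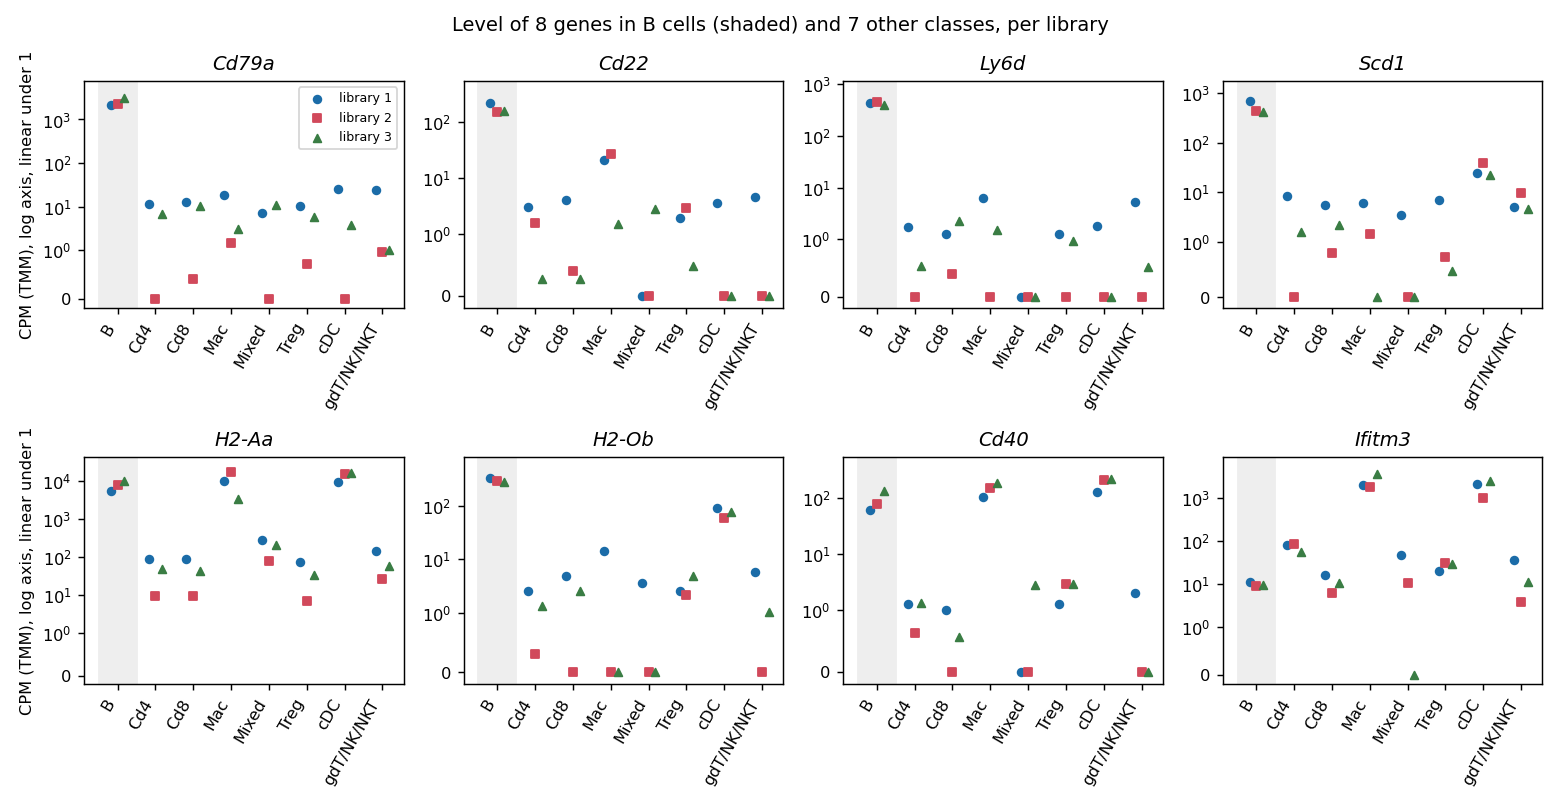
Level of 8 genes in B cells (shaded, left) and in the 7 other classes, with 1 point per library, in CPM on a log axis that is linear under 1. Cd79a, Cd22, Ly6d and Scd1 stand far above the other classes in all 3 libraries, H2-Aa and Cd40 are shared with cDC and macrophages, H2-Ob is highest in B cells, and Ifitm3 is at 8.86 to 11.3 CPM in B cells.

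Promoters of these genes were searched for 2 motifs of B cell factors, because the listed genes were high together. The octamer ATGCAAAT is the motif of the Oct factors and their B cell coactivator Pou2af1, and TCCC, any 2 bases, then GGGA is a core form of the Ebf1 motif. Both strands were searched in the 250 bases before and 50 after the start that RefSeq gives (GRCm38.p6, the assembly also called mm10). Of 45 genes of the marker, signalling, inhibitor and size lists that were called higher in B cells, 32 had a promoter in the table. The octamer was found in 3 of the 32 (9.38%), against 1.75% of all 27025 promoters, and the Ebf1 form in 1 (3.12%), against 0.914% of all. These stretches of 30 bases, written 5′ to 3′ on the strand of the gene with the motif in capitals, show where it stands; ATTTGCAT is the octamer read on the other strand.
Vpreb3 (chr10:75948244-75948273, + strand, motif ends 38 bases before the start): tcagtgggctgATTTGCATgctctattgtg
Blnk (chr19:40994333-40994362, − strand, 123 bases before the start): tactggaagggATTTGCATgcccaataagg
Prkcb (chr7:122289044-122289073, + strand, 63 bases before the start): gcctgggtttcATGCAAATgagggaggcgg
Cd22 (chr7:30879058-30879087, − strand, 40 bases before the start): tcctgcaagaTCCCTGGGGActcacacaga
GENCODE also lists starts further upstream, so that the Blnk and Prkcb stretches lie in an untranslated exon of a longer transcript and the Vpreb3 and Cd22 stretches in an intron. A match of letters describes the sequence and shows no binding.

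Inhibitors of receptor signalling were high in B cells as well. Cd22, a sialic acid-binding lectin that recruits the phosphatase Ptpn6, had 216, 148 and 154 CPM in B cells, against 5.38, 4.52 and 0.754 CPM in the other classes (6.38 ± 0.27). Siglecg, its relative, had 208, 148 and 169 CPM in B cells and differed by 6.97 ± 0.24. No other class averaged more than 16.3 CPM of Cd22 or 67.5 CPM of Siglecg. Of 12 listed inhibitors 10 were called higher and 2 lower (median 5.12). The intracellular Fc receptor-like gene Fcrla (7.88 ± 0.24) and the surface member Fcrl1 (5.23 ± 0.20) belonged to the higher ones. Fcgr2b, the inhibitory receptor for IgG, had 88.5, 70.9 and 111 CPM in B cells (5.34 ± 0.31), and macrophages had more of it, at 195 CPM on average. The 2 lower genes were Lilrb4a (−1.85 ± 0.37), a myeloid inhibitory receptor, and Cd5, a T cell gene that also marks the B-1 subset, whose call was lost without library 1 (−1.36).

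Of 20 transcription factor genes listed for the B lineage, 18 were called higher, 1 lower and 1 not called (median 2.60). Pax5, the factor that holds B cell identity, had 293, 93.0 and 61.4 CPM in B cells and at most 1.08 CPM on average in any other class (8.96 ± 0.26). Ebf1, which acts upstream of it, had 1460.2, 1267 and 872 CPM in B cells, against 9.44, 0.731 and 0.543 CPM elsewhere (8.68 ± 0.23). Both were lowest in the 5′ library, and no other class came near the B cell range. Pou2af1 (5.76 ± 0.24), Spib (6.79 ± 0.34) and Mef2c (6.44 ± 0.23) followed. Spi1, which encodes PU.1, was higher in B cells than in the mean log level of the other classes (3.01 ± 0.30) and lower than in cDC (−2.77 ± 0.30), and Irf8 did the same (1.64 ± 0.15 and −0.85 ± 0.21). The factor not called was Bcl6, the master factor of the germinal centre, at 25.7, 11.1 and 20.8 CPM.

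By size alone, among genes on no list and above 100 CPM, the largest difference was that of Ly6d, a surface protein of B cell commitment, with 424, 456 and 398 CPM in B cells, against 2.48, 0.0578 and 0.817 CPM in the other classes (8.85 ± 0.24). Vpreb3, a chaperone-like relative of the surrogate light chain, had 162, 166 and 176 CPM in B cells (8.73 ± 0.23). Scd1, the desaturase that makes monounsaturated fatty acids, had 693, 439 and 410.4 CPM in B cells, against 8.53, 7.48 and 4.53 CPM in the other classes (7.07 ± 0.23). No other class averaged more than 28.9 CPM of any of these genes. The exchange factor Rasgrp3 (6.99 ± 0.26), the class II gene H2-Eb2 (6.29 ± 0.25), Snn (6.25 ± 0.32), the haematopoietic factors Lyl1 (5.62 ± 0.28) and Lmo2 (5.23 ± 0.24) and the protein kinase A inhibitors Pkib (4.90 ± 0.20) and Pkig (4.67 ± 0.14) came next. Pkib was higher still in cDC, at 279 CPM on average. Then followed Dennd5b, the cathepsin Ctsh, the protease inhibitor Serpinb1a, the aldehyde dehydrogenase Aldh2 and Ralgps2, with log2 fold changes of 4.09 to 4.56.

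At the other end, B cells had little of several genes that were high in some or most of the other classes. S100a4, a calcium-binding protein of motile and memory cells, had 79.6, 15.5 and 67.6 CPM in B cells, against 1593, 1761 and 729.9 CPM in the other classes (−4.14 ± 0.45). The antiviral membrane proteins Ifitm2 (−3.35 ± 0.38) and Ifitm3 (−3.13 ± 0.47) were at no more than 11.8 CPM in any B cell library. Ifitm3 was high in Mac and cDC, while Cd8 cells had 16.0, 6.07 and 10.2 CPM of it. Ccr2, the receptor that draws monocytes and T cells into tissue, was at 19.4, 0 and 40.1 CPM (−3.81 ± 0.38). The stress gene Ier3 (−3.19 ± 0.51), the NKG2D gene Klrk1 (−3.19 ± 0.49), Arl4c (−3.11 ± 0.25), the receptor component Ramp1 (−3.01 ± 0.28) and Ccrl2 (−2.97 ± 0.31) were also lower. Cxcl2 had 1 UMI in all B cells together, so that no fold change is given.

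For antigen presentation B cells were set beside conventional dendritic cells (cDC), the other professional presenting class. Between these classes 41.7% of the 10895 genes were called, 21.6% higher in B cells and 20.1% lower, with a median of 0.15, or 0.04 by DESeq2. All 13 listed genes of the class II pathway were called higher in B cells than in the mean of the 7 other classes (median 4.38), and DESeq2's test called 11. The call of Ctss was lost without library 1 (0.46), and that of Ifi30 rests on library 3, since no class of the 3′ libraries had a UMI of it. H2-Aa had 5366, 7851 and 10049 CPM in B cells, against 9660.2, 15691 and 15999 CPM in cDC, a difference of −0.85 ± 0.58 that was not called. The invariant chain gene Cd74 had 12498, 15084 and 25568 CPM in B cells and 21579, 24599 and 35929.8 CPM in cDC (−0.64 ± 0.53, not called). In each library the B cell value of both genes was below the cDC value.

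Genes of peptide loading went both ways by edgeR. H2-Ob, a chain of the inhibitor H2-O that restrains the catalyst H2-DM, had 329, 286 and 275 CPM in B cells, against 92.3, 57.9 and 76.1 CPM in cDC (2.05 ± 0.34), with no overlap between the classes. Its partner H2-Oa had 255, 217 and 372 CPM in B cells and 206, 163 and 159.9 CPM in cDC (0.64 ± 0.19). This call was lost without library 1 (0.65) and without library 3 (0.32). H2-DMb1, a beta chain of the catalyst, was lower in B cells, at 165, 235 and 104 CPM, against 690.0, 956 and 362 CPM in cDC (−1.95 ± 0.27). The second beta chain gene, H2-DMb2, went the other way, at 706, 684 and 1640.2 CPM in B cells and 347, 300.4 and 1047 CPM in cDC (0.97 ± 0.32), and its call was lost without library 1 (0.76) or library 2 (0.76). The values of H2-DMb2 overlapped between the classes. The 2 beta chain genes are close copies, and how reads were shared between them is uncertain. The protease gene Ctss, which trims the invariant chain, was lower in B cells than in cDC (−1.52 ± 0.17). Of the 13 genes edgeR called 3 higher and 4 lower than in cDC, and DESeq2 called 0 and 3. Over all genes tested, edgeR called 21.6% higher and 20.1% lower.

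Cd40 and Cd86, receptors and ligands of T cell help, were lower in B cells than in cDC. Cd40, the receptor for the T helper signal, had 60.7, 77.5 and 129.5 CPM in B cells, against 125, 206 and 217 CPM in cDC (−1.01 ± 0.21). Cd86 had 186, 199 and 95.2 CPM in B cells and 302, 333 and 129 CPM in cDC (−0.69 ± 0.27), a call lost without library 1 (−0.86) or library 2 (−0.69). Both stood above the mean log level of the 7 classes (4.37 ± 0.21 and 3.62 ± 0.24). Tnfsf9, the ligand of 4-1BB, was at 3.94, 0 and 2.08 CPM in B cells and 106, 214 and 617 CPM in cDC (−6.17 ± 0.51). The adhesion ligand Icam1 was lower too (−1.96 ± 0.26). Of the 12 listed genes 1 was called higher than in cDC, the adhesion receptor Slamf1, and 5 lower, and against the mean of the 7 classes 6 were higher and 2 lower.

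**Figure D2:**
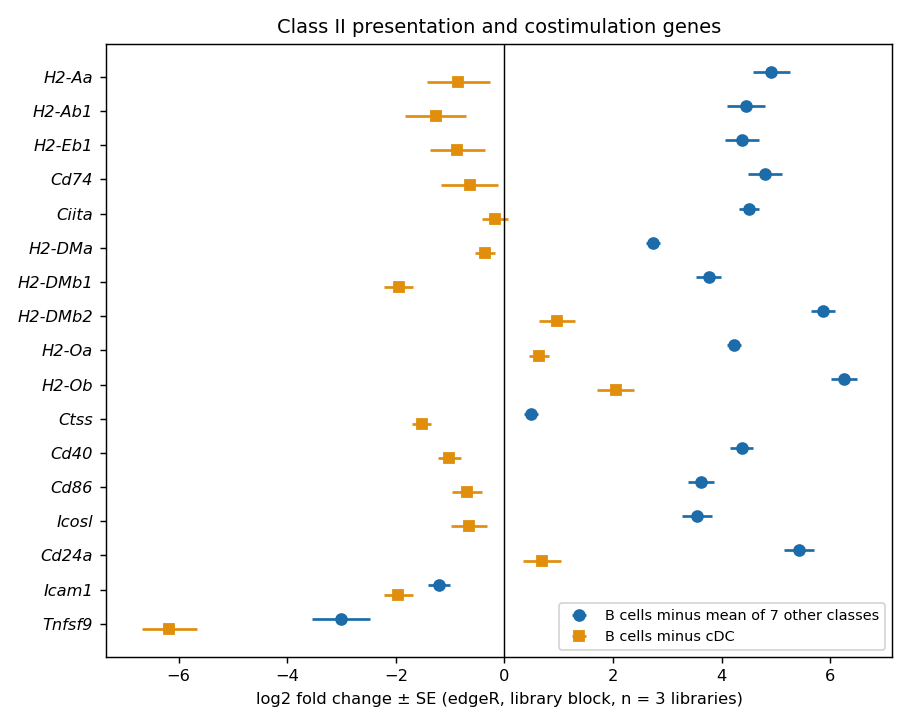
Log2 fold change with its standard error (horizontal axis) of 17 class II presentation and costimulation genes, for B cells minus the mean of the 7 other classes (circles) and B cells minus cDC (squares), n = 3 libraries. H2-Ob, H2-DMb2 and H2-Oa lie right of 0 in both comparisons, while H2-DMb1, Ctss and Tnfsf9 lie left of 0 against cDC.

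Receptors of follicular homing were higher in B cells than in the other nerve leukocytes. Cxcr5, the receptor for the follicle chemokine Cxcl13, had 199, 77.5 and 251 CPM in B cells, against 10.0, 5.73 and 5.15 CPM in the other classes (5.31 ± 0.23). Ccr6 had 189, 151 and 228 CPM in B cells (4.71 ± 0.18), and Ccr7, the lymph node receptor, had 678, 682 and 1483 CPM (3.40 ± 0.34). Every B cell library had more of these genes than the mean of the other classes. Of 15 listed homing genes tested, 7 were called higher and 5 lower. The egress receptor S1pr1 (2.43 ± 0.19) was among the higher ones, and the integrin chains Itgal (−1.18 ± 0.20) and Itgb2 (−1.42 ± 0.15) and the inflammatory chemokine receptor Cxcr3 (−1.13 ± 0.24) among the lower ones. All 8 follicular genes were called higher (median 4.63), the low-affinity IgE receptor Fcer2a (7.43 ± 0.23) and the IgM receptor Fcmr (7.02 ± 0.23) included.

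The cells had the receptors for B cell survival factors. Tnfrsf13c, the BAFF receptor, had 368, 224 and 199.8 CPM in B cells, against 8.87, 4.23 and 8.63 CPM in the other classes (5.51 ± 0.16), and Tnfrsf13b, which encodes TACI, had 90.4, 102 and 74.4 CPM (2.20 ± 0.14). Of the innate sensors, Tlr7, the endosomal receptor for single-stranded RNA, was at 26.8, 17.7 and 25.5 CPM in B cells (4.27 ± 0.34), and Cd180, a surface relative of the Toll-like receptors, at 94.8, 104 and 138 CPM (6.50 ± 0.34). Unc93b1, which carries endosomal receptors to their place, differed by 3.29 ± 0.16. Of 12 sensor genes tested 6 were called higher and 1, Myd88, lower, a call lost whenever a library was left out (−0.43, −0.49 and −0.58 without libraries 1, 2 and 3).

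Interferon-induced genes were low in B cells. Of 15 listed genes 10 were called lower than in the mean of the other classes and 1 higher (median −1.38), and 14 were lower than in cDC. Isg15 had 21.5, 19.9 and 33.8 CPM in B cells, against 107, 116 and 355 CPM in the other classes (−2.34 ± 0.34). Irf7 had 21.5, 31.0 and 118 CPM in B cells (−1.03 ± 0.16), with its highest value in library 3. The interferon receptor chains Ifnar1 (−0.88 ± 0.16), Ifnar2 (−1.25 ± 0.15) and Ifngr1 (−1.72 ± 0.20) were lower as well, while Ifngr2 was higher (2.49 ± 0.15).

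Genes of recent activation were mixed, with 6 of 14 called higher and 5 lower (median −0.15). Cd83, an activation marker that stabilises class II, had 614, 764 and 1350.5 CPM in B cells (4.16 ± 0.22), Myc had 101, 50.9 and 204 CPM (3.29 ± 0.15) and Egr3, an antigen receptor-induced factor, 189, 81.9 and 79.6 CPM (3.90 ± 0.20). The NF-kB inhibitor Nfkbia (−1.46 ± 0.23) and the AP-1 genes Junb (−0.48 ± 0.11) and Batf (−1.09 ± 0.15) were lower. Of 10 listed germinal centre genes 6 had enough counts to be tested. After thinning to 1000 UMIs per cell, Mki67, a proliferation marker, was found in 1.05%, 1.14% and 0.259% of B cells of libraries 1, 2 and 3, against 1.75%, 0.669% and 3.98% of Cd4 cells of the same libraries. Without thinning the B cell shares of Mki67 were 2.07%, 4.49% and 2.17%. Of the 6 germinal centre genes tested, Mef2b was called higher (4.78 ± 0.46) and Fas (−0.90 ± 0.22) and S1pr2 (−1.57 ± 0.53) lower. Without library 1 the call of Fas was lost (−0.76), S1pr2 turned its sign (0.31) and Mef2b had too few counts to be tested. S1pr2 was at no more than 4.68 CPM in any B cell library.

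Genes that mark other B cell subsets and antibody-secreting cells were mixed. The calls set B cells against the 7 other classes, so they do not measure how many B cells belong to a subset. Over all 10895 genes tested, 20.8% were called higher and 16.4% lower. The complement receptor gene Cr2 had 114, 31.0 and 72.3 CPM in B cells (7.92 ± 0.27), and 6 of 8 marginal zone genes were called higher and 2 lower. Bhlhe41, a factor of B-1a cells, had 34.9, 104 and 20.3 CPM (5.99 ± 0.34), its highest value in library 2, while 4 of 7 B-1 genes were called lower and 3 higher. Of 7 genes of age-associated B cells 4 were called lower and 1 higher. Tbx21, the T-bet gene, was among the lower ones at 6.57, 0 and 19.2 CPM (−1.59 ± 0.32), a call lost without library 1 (−1.25). Of 9 secretion genes tested 5 were called higher and 3 lower. Jchain, which joins IgM and IgA into polymers, had 23.6, 334 and 60.3 CPM (3.27 ± 0.57, and 1.37 without library 2), with library 2 the highest. Xbp1, which expands the secretory machinery, was lower (−0.44 ± 0.15), a call lost without library 1 (−0.45) or library 2 (−0.31).

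B cells were then split by their heavy chain. A cell was taken as switched with at least 2 UMIs of the IgG and IgA constant genes and more of these than of Ighm and Ighd, and as unswitched with at least 2 UMIs of Ighm and Ighd and none of the others. Switched cells made 136 of 1145 cells with a call in library 1 (11.9%, 10.1 to 13.9), 47 of 83 in library 2 (56.6%, 45.3 to 67.5) and 43 of 272 in library 3 (15.8%, 11.7 to 20.7). The interval of library 2 lies above those of the other libraries, and library 2 is also the one with the fewest B cells. With 3 libraries of 1 genotype this difference was not tested. In Cd4 cells, which make no immunoglobulin, 30 of 1784, 4 of 784 and 5 of 1222 met the rule for a switched cell. An Ighg2b UMI was seen in 17.4%, 33.7% and 8.92% of B cells, against 10.2%, 1.91% and 1.47% of Cd4 cells, which had median depths of 2384.5, 3473.5 and 1920.5 UMIs. Switched cells were deeper, with median UMIs of 3648.5, 5954 and 5360 in libraries 1, 2 and 3, against 2796, 3725.5 and 4345 in unswitched cells.

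The order of isotypes was alike in the 3 libraries. Ighg2b was the leading constant gene in 68, 22 and 20 switched cells of libraries 1, 2 and 3, Ighg1 in 40, 17 and 12, Igha in 26, 8 and 7, and Ighg2c in 10, 4 and 6. Cells that tied between genes were counted under each, and Ighg3 led in none. IgG2b-led cells were thus the most frequent kind in each library by these calls. Cd4 cells of libraries 1, 2 and 3 also held Ighg2b UMIs, in 10.2%, 1.91% and 1.47% of cells. The other shares in Cd4 cells were 0.953%, 0.128% and 0% for Ighg1 and 3.64%, 0.893% and 1.06% for Igha. For Ighg2c they were 1.57%, 2.04% and 0.245%. The part of this background in the order of isotypes was not tested.

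**Figure D3:**
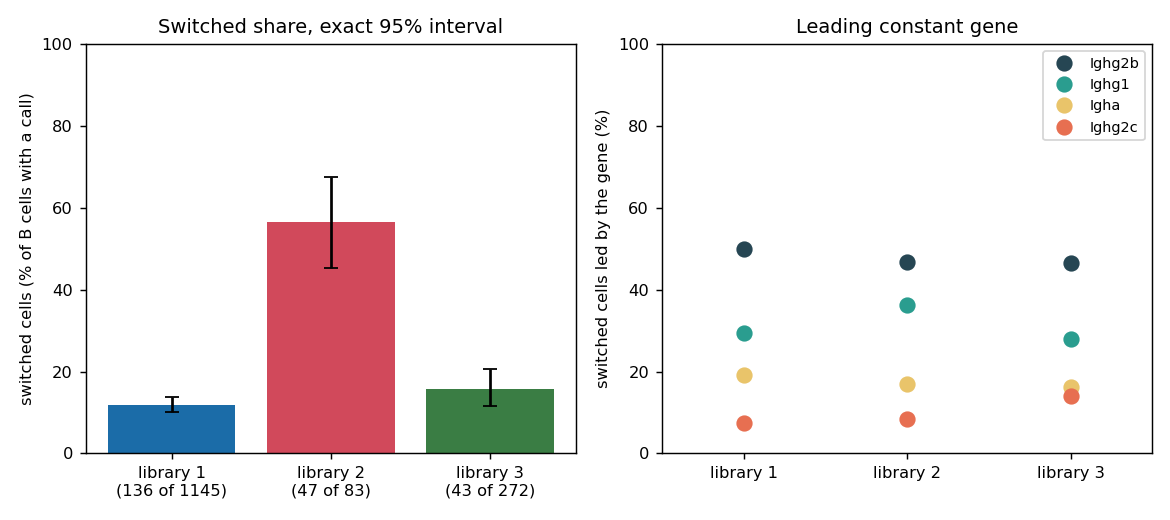
Left, share of switched cells among B cells with a heavy chain call in each library, with exact 95% binomial intervals. Right, share of the switched cells in which each constant gene had the most UMIs. Library 2 stands at 56.6%, against 11.9% in library 1 and 15.8% in library 3, and Ighg2b leads in all 3.

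Switched and unswitched B cells of the same libraries were compared on all other genes, with immunoglobulin genes set aside. Of 4957 genes tested, edgeR called 513 (10.3%) at an adjusted p under 0.05, 270 higher in switched cells (5.45%) and 243 lower (4.9%), with Benjamini-Hochberg adjustment, and DESeq2 called 146 (2.95%), 76 higher (1.53%) and 70 lower (1.41%), all among the 513. Without library 1, which holds most of the cells, edgeR called 189. In all, 145 genes were called with every library left out in turn, 73 higher and 72 lower in switched cells. T cell markers summed to 123, 100.1 and 652 CPM in switched cells of libraries 1, 2 and 3, against 237, 7.12 and 866 CPM in unswitched cells, and macrophage markers to 44.7, 0 and 0 CPM, against 48.8, 0 and 8.86 CPM. Of the 4 T cell markers tested, Cd3e was called lower in switched cells (−0.73 ± 0.21) and lost its call without library 1 (−0.54). The part of these markers in the calls below, like that of the deeper counts of switched cells, was not tested.

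Adhesion and motility genes rose in switched cells, with changes given on the log2 scale with their standard error and edgeR's adjusted p. These adjusted p-values rest on 3 libraries, each split into both kinds of cell, and on a spread drawn mainly from all genes together. Their size therefore does not measure how closely the libraries match for a gene. Without the library block edgeR called 8 genes between these kinds of cell. Itgb1, the integrin beta-1 chain, had 561, 525 and 569 CPM in switched cells of libraries 1, 2 and 3, against 103, 22.8 and 137 CPM in unswitched cells (2.40 ± 0.14, adjusted p = 3.2e-64). Its partner Itga4, which binds VCAM-1 on inflamed vessels, had 481, 356 and 358 CPM in switched and 174, 129 and 164 CPM in unswitched cells (1.35 ± 0.14, adjusted p = 1.5e-20). Neither gene overlapped between the kinds. Cxcr3, the receptor for interferon-induced chemokines, had 66.1, 66.1 and 119 CPM in switched and 13.8, 7.59 and 29.6 CPM in unswitched cells (2.18 ± 0.29, adjusted p = 4.2e-12). After thinning to 1000 UMIs, Itgb1 was seen in 27.9%, 31.9% and 38.1% of switched cells, against 5.69%, 2.78% and 8.04% of unswitched cells. Without thinning the shares were 63.2%, 91.5% and 86.0% of switched cells and 14.9%, 8.33% and 26.6% of unswitched cells. Of 14 homing genes tested 4 rose and 5 fell.

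Some genes known from memory and B-1 cells rose as well. Bhlhe41, a factor of B-1a and memory B cells, had 146, 143 and 99.4 CPM in switched cells, against 11.1, 38.0 and 5.74 CPM in unswitched cells (3.57 ± 0.29, adjusted p = 3.7e-31). Zbtb32, a factor found in memory and B-1 cells, had 46.1, 55.1 and 59.7 CPM in switched and 7.65, 0 and 6.69 CPM in unswitched cells (2.85 ± 0.42, adjusted p = 9.8e-10). The memory marker Cd80, a costimulatory ligand, had 68.1, 88.1 and 63.6 CPM in switched and 5.74, 15.2 and 7.65 CPM in unswitched cells (3.28 ± 0.38, adjusted p = 1.2e-15). The kinds were apart in all 3 libraries for each of these genes. Of the 6 listed B-1 genes tested, 3 rose (Bhlhe41, Zbtb32 and Anxa2, 2.61 ± 0.22) and the other 3 were not called, and of 5 memory genes Cd80 rose, Cd38 fell and 3 were not called, with the Cd38 call lost without library 1 (−0.70) or library 3 (−0.43). Fas, the death receptor that activated B cells gain, rose by 1.96 ± 0.38 (adjusted p = 8.6e-06).

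The strongest calls also held genes of other roles. Slpi, a secreted inhibitor of leukocyte proteases, had 212, 191 and 99.4 CPM in switched cells, against 3.82, 0 and 4.78 CPM in unswitched cells (5.43 ± 0.32, adjusted p = 8.0e-62). Basp1, a membrane-bound signalling protein, had 146, 330.4 and 51.7 CPM in switched and 3.06, 7.59 and 0.956 CPM in unswitched cells (5.50 ± 0.36, adjusted p = 1.3e-49). Apoe, the lipid carrier, had 1702, 1417 and 1503 CPM in switched and 815, 668 and 298 CPM in unswitched cells (1.49 ± 0.10, adjusted p = 2.0e-48). In every library the switched value was the higher. Apoe is also the gene of macrophages here, at 31166 CPM on average in them, and the macrophage markers of the B cells are those given above. Zbtb20, a factor needed by plasma cells, rose by 1.75 ± 0.13, Tcf4 by 1.23 ± 0.13, the secretory gene Mzb1 by 0.60 ± 0.11, the lymphotoxin chain Ltb by 0.77 ± 0.11 and the kinase Pim1 by 0.80 ± 0.14.

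**Figure D4:**
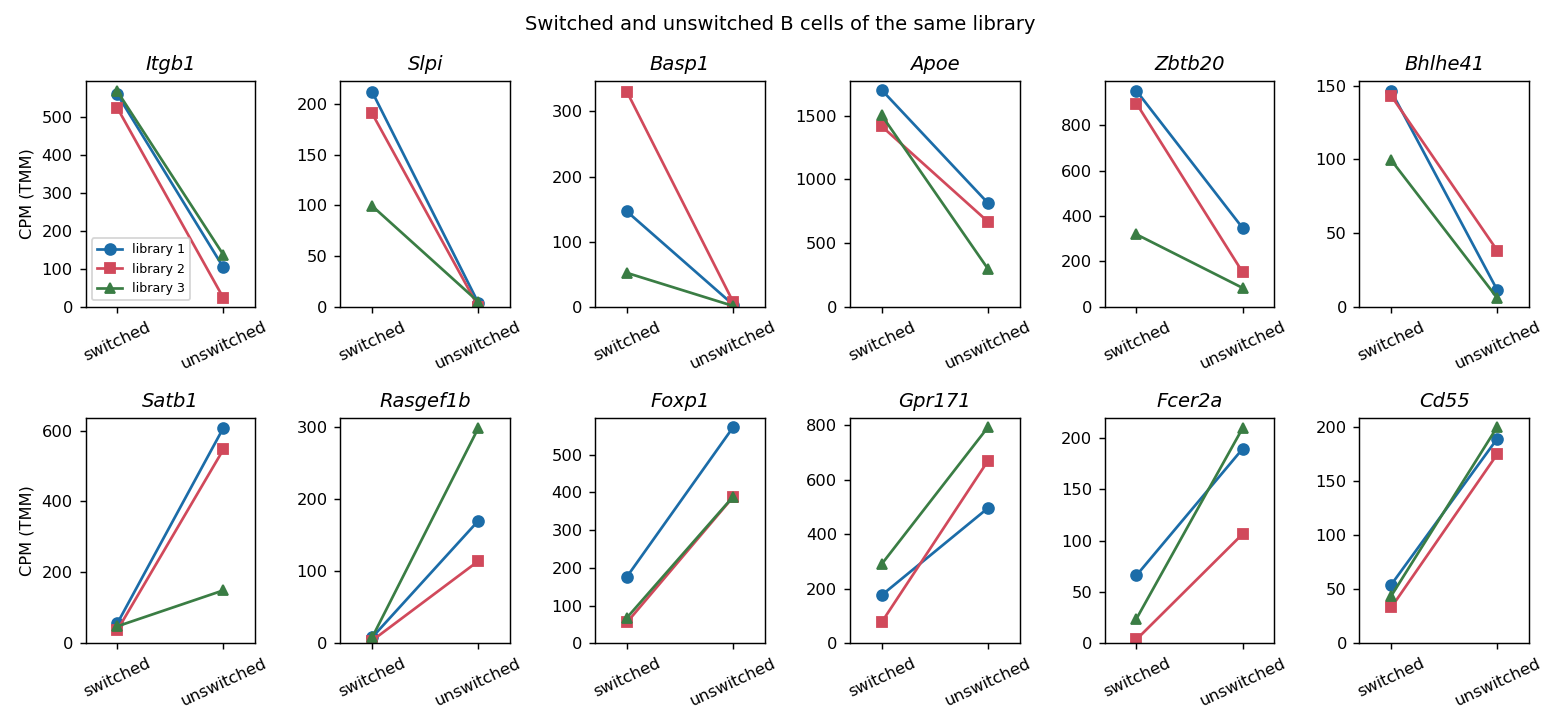
Level of 12 genes in switched (left) and unswitched (right) B cells, in CPM, with 1 line per library. The first 6 genes are higher and the last 6 lower in the switched cells of each of the 3 libraries; Itgb1 stands at 525 to 569 CPM in switched cells.

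Genes of resting follicular cells fell in switched cells. Of 7 listed follicular genes tested, 6 fell and none rose by edgeR (median −1.15, against 0.00 over all genes), and DESeq2 called 4. Fcer2a had 66.1, 3.67 and 23.9 CPM in switched cells, against 189, 106 and 209 CPM in unswitched cells (−2.12 ± 0.23, adjusted p = 1.2e-18, and −3.51 without library 1). The complement regulator Cd55 had 54.1, 33.0 and 43.8 CPM in switched and 189, 175 and 199.8 CPM in unswitched cells (−2.01 ± 0.22, adjusted p = 2.1e-18). The groups did not overlap for either gene. The complement receptor Cr2 (−2.48 ± 0.29), Fcmr (−1.15 ± 0.14) and the egress receptor S1pr1 (−1.03 ± 0.15) fell too.

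Several regulators fell with them. Satb1, a chromatin organiser, had 56.1, 36.7 and 47.7 CPM in switched cells, against 608, 547 and 149 CPM in unswitched cells (−3.23 ± 0.19, adjusted p = 1.3e-58). Foxp1, a factor of mature follicular B cells, had 176, 55.1 and 67.6 CPM in switched and 572, 387 and 388 CPM in unswitched cells (−2.06 ± 0.16, adjusted p = 7.2e-36). Rasgef1b, an exchange factor for Ras-like proteins, had 8.01, 3.67 and 7.95 CPM in switched and 169.8, 114 and 298 CPM in unswitched cells (−4.74 ± 0.33, adjusted p = 1.1e-43). All 3 genes were lower in the switched cells of every library, with Satb1 lowest among unswitched cells in the 5′ library. The receptor gene Gpr171 (−1.76 ± 0.14), the IgD regulator Zfp318 (−1.90 ± 0.22) and the factors Bcl11a (−1.21 ± 0.20) and Bach2 (−1.12 ± 0.20) fell too, called by both edgeR and DESeq2. Of 18 listed transcription factors tested, 8 fell and 3 rose.

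The receptor complex itself was a little lower in switched cells. Cd79a had 1731, 1968 and 2752 CPM in switched cells, against 2118, 3137 and 3381 CPM in unswitched cells (−0.40 ± 0.08, adjusted p = 9.0e-06). The switched value was the lower in each library, though the ranges of the groups overlap. Ebf1 (−0.86 ± 0.10) and Pax5 (−0.88 ± 0.18) fell, and the Pax5 call was lost without library 1 (−0.92) and was not made by DESeq2. Of 17 signalling genes 7 fell and 2 rose by edgeR, and 4 fell and none rose by DESeq2, while of 9 inhibitors tested 5 fell. Cd72, an inhibitory lectin-like receptor, had 46.1, 69.7 and 135 CPM in switched and 250.1, 433 and 382 CPM in unswitched cells (−2.11 ± 0.18, adjusted p = 3.9e-30). Fcgr2b had 44.1, 36.7 and 43.8 CPM in switched and 89.5, 144 and 137 CPM in unswitched cells (−1.40 ± 0.24, adjusted p = 1.9e-07). The groups did not overlap for either inhibitor. Class II genes were close, with 3 of 12 lower (H2-Ab1, H2-Oa and H2-Ob) and none called by DESeq2.

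Light chains were read last. With at least 2 UMIs of the constant genes, lambda cells made 67 of 1403 cells in library 1 (4.78%, 3.72 to 6.03), 7 of 88 in library 2 (7.95%, 3.26 to 15.7) and 147 of 309 in library 3 (47.6%, 41.9 to 53.3). The 5′ library thus stood apart by this measure. By the variable genes, which a 5′ library reads, 19 of its 396 cells were lambda (4.80%, 2.91 to 7.39), and with constant and variable genes together the shares were 4.78%, 7.95% and 7.39% in libraries 1, 2 and 3. Cd4 cells of library 3 gave 314 kappa and 0 lambda calls among 1222 cells by the same variable genes, and 7 kappa and 2 lambda calls by the constant genes. Kappa calls by variable genes in that library thus include background, so its lambda share by them is not a measure of the B cells alone. Igkc gave 23684 of the 4544649 UMIs of the 1446 B cells in library 1. In library 3 it gave 2745 of the 1778796 UMIs of 415 B cells. The lambda constant genes gave 4014 and 1631 UMIs in the same cells. Read end and library cannot be told apart here, since library 3 is the only 5′ library.

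**Figure D5:**
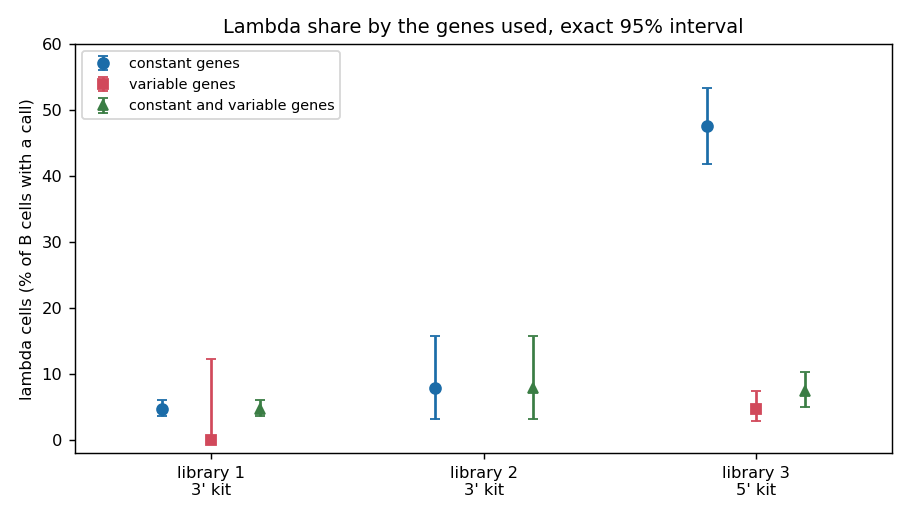
Share of lambda cells among B cells with a light chain call in each library, by the genes used for the call, with exact 95% binomial intervals; sets with fewer than 20 cells are not drawn. Constant genes alone give 47.6% in the 5′ library, and the other calls of that library give 4.80% and 7.39%.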

How the data were processed

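Counts of UMIs (unique molecular identifiers, counted molecules) per gene and cell, and the percent of mitochondrial counts, are the authors' deposited values, with cell classes from the deposited metadata; the submitters' processing notes name mm10 as the mouse genome build, Seurat 4.0 and Cell Ranger 5.0.1. The members and the gene lists were chosen with earlier results of these data known. The table held 17168 genes and 11640 cells, of 10 classes in 14 clusters, and 0 columns of samples were left unused. Plasma and pDC cells had fewer than 20 cells in some library and were not tested.

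Counts were summed per class and library and tested with edgeR 4.0.16 in R 4.3.3 (TMM scaling, filterByExpr, quasi-likelihood F-test, library as a block), with genes called at a Benjamini-Hochberg adjusted p under 0.05, and with DESeq2 1.42.0 as the alternative. Switched and unswitched cells were summed in the same way, without immunoglobulin genes. The pairing comes from the library: the deviations of B cells correlated with those of the other classes of their library at 0.327 to 0.849, and those of switched with unswitched cells at 0.673, 0.456 and 0.774. Shares of cells with a transcript were taken after thinning each cell to 1000 UMIs, which left out 16, 1 and 29 B cells and 244, 37 and 343 Cd4 cells of libraries 1, 2 and 3. Scrublet, in scanpy 1.11.5, marked 84 doublets, 52 of them B cells, which were kept and left out as an alternative. Libraries 1 and 2 shared 6 barcodes. Named genes are list members, the 15 unlisted genes with the largest and the 10 with the most negative log2 fold change of B cells against the other classes among called genes of at least 100 CPM, and the 10 with the smallest adjusted p between switched and unswitched cells. The fits were tested on simulated data. Promoters came from RefSeq (GRCm38.p6) and annotation from GENCODE. Some genes of the lists are counted but not reported by name here.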

Additional observations from a re-analysis of the deposited data

How the results depend on the processing

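Counts of called genes moved with the library block, the number of cells, the library left out and, for switched cells, the test. The pairing by library mattered: without the replicate block, edgeR called 1678 genes between B cells and the other classes, 2285 between B cells and cDC, and 8 between switched and unswitched cells. With every class thinned to equal cells, 1220 genes of 5019 tested were called between B cells and the other classes and 1721 between B cells and cDC, and with equal cells of both kinds 292 of 3229 were called between switched and unswitched cells, where DESeq2 called 146; fewer cells and fewer genes enter these fits. Leaving out 1 library at a time gave 2173 to 3557 genes, 2027 to 4085 genes and 189 to 481 genes in these comparisons, the lowest each time without library 1. The mean share over libraries of switched cells was 28.1% ± 24.8 (SD, n = 3), and 13.8% to 36.2% with 1 library left out. That of lambda cells was 20.1% ± 23.8 (SD, n = 3), 6.37% to 27.8% with 1 library left out, 6.71% by both kinds of gene (n = 3) and 2.40% by variable genes over the 2 libraries with a call (0 of 28 cells in library 1 and 4.80% in library 3), choices made after seeing the data. At 1 UMI variable genes gave 14.4%, 25% (1 of 4 cells) and 4.96% in libraries 1, 2 and 3. At 2000 UMIs per cell the mean share of B cells with a Cd79a UMI was 97.0%, against 86.3% at 1000, as deeper cells hold more UMIs. Of the genes named between B cells and the other classes, S1pr2 reversed its sign without library 1, with leave-one-out log2 fold changes of −3.52 to 0.31, and 32 of 1117 values for 125 named genes lost their call. Of 242 values for 27 genes named against cDC, 21 lost and 3 gained a call, and of 580 values for 53 genes between switched and unswitched cells 92 lost it; none of these reversed. The cause was not tested where none is given.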

Other observations

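Heavy chain variable genes gave UMIs mainly in the 5′ library, where 393 of 415 B cells had a UMI of some Ighv segment, against 335 of 1222 Cd4 cells, with median depths of 4198 UMIs in B cells and 1920.5 in Cd4 cells. UMIs of more than 1 segment were found in 163 B cells and 41 Cd4 cells. Ighv8-12 was seen in 19.5% of these B cells and in 15.5% of the Cd4 cells, Ighv1-82 in 11.1% of B cells and 7.20% of Cd4 cells, and Ighv2-2 in 9.40% of B cells and 6.22% of Cd4 cells. The shares of these segments are therefore not read as shares of B cells that carry them. Ighv3-6 was seen in 6.51% of B cells and 0.245% of Cd4 cells, and Ighv1-26 in 5.54% of B cells and 0 of 1222 Cd4 cells. In library 1, 176 of 1446 B cells and 5 of 1784 Cd4 cells had a segment, and in library 2, 2 of 89 B cells and 0 of 784 Cd4 cells.

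The most Ighg2b UMIs in any single B cell numbered 21 in library 1, 337 in library 2 and 314 in library 3. Without the cells that held over 100 UMIs of switched constant genes, a choice made after seeing the data, the switched share was 11.9% in library 1, 55.6% in library 2 and 15.5% in library 3.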
